A study of Mus musculus with 6 samples.

Results

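In B cells sorted from germinal centers (GCs) of WT mice, 2334 H3K4me1 regions away from promoters had no other repeatedly called distal region close by and overlapped H3K4me3. They were chosen from peak lists as follows. Peaks of the 3 H3K4me1 libraries were merged into 39388 regions, of which 8430 were held by 2 or more libraries. Of these, 5788 were distal, meaning over 5 kb from every transcription start site (TSS) of a protein-coding gene. A distal region was isolated if no other of these distal regions lay within 12.5 kb. Regions held by fewer than 2 libraries and regions within 5 kb of a TSS did not count as neighbours. A distal region was within H3K4me3 if it overlapped a merged H3K4me3 region held by 2 or more of 3 libraries. The 2334 isolated distal regions make up 40.3% of the distal ones. A further 3054 distal regions within H3K4me3 had such a neighbour and are called clustered here, while 241 isolated and 159 clustered distal regions lay outside H3K4me3. Because the peak calls chose the regions, the height, the number of libraries and the overlap of the marks at them are description and were not tested.

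The 6 libraries came from one condition. On day 8 of the response to sheep red blood cells (SRBC) the spleens were collected, and each library was made by Mint-ChIP, a barcoded and multiplexed chromatin immunoprecipitation for small samples, from 50000 sorted cells. The labels call the cells GC centrocytes, the light zone fraction, but the methods give GC B cells, and the labels give the genotype as WT, with no strain, age or sex. The study uses WT for Cγ1 cre/+ mice in its GC experiments, a Cre expressed in GC B cells, and whether these mice carried it is not stated. The labels' protocol text names an H3K27ac antibody, whereas titles, antibody labels and methods name H3K4me1 and H3K4me3, which were used here. Nothing states whether replicates are separate mice, so that the spread between them may be technical.

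H3K4me1 is laid down largely by KMT2C and KMT2D at enhancers, where it primes the site for later acetylation of H3K27. H3K4me3 is laid down mainly by SETD1 and KMT2A or KMT2B complexes at active promoters, and it also occurs at a lower level at strongly active enhancers. At promoters the nucleosomes next to the TSS carry H3K4me3 and H3K4me1 tends to lie on the flanks, so a place where both are called together is of interest when it lies far from a TSS.

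The sequences below are the central 300 bp of the 4 isolated distal regions with the highest H3K4me1 fold enrichment in their lowest library, among those held by 3 of 3 libraries. They are shown because they are the best supported members. Each is from the GRCm38.p6 genome, plus strand, 5′ to 3′, and is named for the gene with the nearest TSS. Capitals mark matches to any of 11 short motifs of B cell transcription factors, on either strand.
Myl6b, chr10:128504725-128505024: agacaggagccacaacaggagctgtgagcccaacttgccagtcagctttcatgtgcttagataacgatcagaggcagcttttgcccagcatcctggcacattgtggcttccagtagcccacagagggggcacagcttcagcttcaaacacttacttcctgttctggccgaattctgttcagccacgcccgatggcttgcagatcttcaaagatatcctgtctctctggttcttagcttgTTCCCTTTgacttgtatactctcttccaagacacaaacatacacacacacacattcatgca
Macf1, chr4:123577582-123577881: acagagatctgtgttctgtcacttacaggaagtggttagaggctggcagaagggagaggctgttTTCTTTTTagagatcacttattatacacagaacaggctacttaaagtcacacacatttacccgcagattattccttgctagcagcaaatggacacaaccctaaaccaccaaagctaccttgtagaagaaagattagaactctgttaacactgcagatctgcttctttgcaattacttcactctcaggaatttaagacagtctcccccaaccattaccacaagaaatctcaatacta
Fndc3a, chr14:72689400-72689699: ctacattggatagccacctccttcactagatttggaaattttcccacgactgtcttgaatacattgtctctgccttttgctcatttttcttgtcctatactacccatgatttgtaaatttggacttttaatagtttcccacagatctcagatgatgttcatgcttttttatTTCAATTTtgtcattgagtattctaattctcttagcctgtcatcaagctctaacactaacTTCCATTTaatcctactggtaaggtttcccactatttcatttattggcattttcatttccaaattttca
Invs, chr4:48327355-48327654: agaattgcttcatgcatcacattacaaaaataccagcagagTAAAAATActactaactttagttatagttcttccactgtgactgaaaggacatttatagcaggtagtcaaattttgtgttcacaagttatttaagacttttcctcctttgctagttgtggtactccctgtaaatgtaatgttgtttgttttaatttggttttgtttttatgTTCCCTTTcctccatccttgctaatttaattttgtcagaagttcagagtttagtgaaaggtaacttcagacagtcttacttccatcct
Here and below, IRF core stands for AAANNGAA and MEF2 core for TATTTNTA, with N as any base. All 4 windows held a match to the IRF core and the Invs window also held the MEF2 core. The IRF core letters are common: 34.7% of the central windows of all 8430 H3K4me1 regions held them.

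The region near Myl6b, a myosin light chain gene, was intergenic, 5.77 kb upstream of the TSS and 849 bp wide. Its H3K4me1 fold enrichment was 10.3, 8.998 and 11.0 in replicates 1 to 3. Fold enrichment here is the peak caller's ratio of fragment pileup to local background, with 1 added to each. It was taken from the widest peak over the region in each library. The region near Macf1, a gene for a protein that links microtubules and actin, lay in a Macf1 intron 49.96 kb upstream of the nearest of its TSSs, with fold enrichments of 9.62, 9.75 and 8.77. The region in an intron of Fndc3a, 20.2 kb downstream of the TSS, had fold enrichments of 12.6, 8.25 and 8.77. That in an intron of Invs, the gene of the ciliary protein inversin, had 8.42, 8.998 and 8.20, with 11 fragments at the summit in every library. High values in every library follow from how these 4 were chosen, whereas the H3K4me3 peaks over them differed in width. At Macf1 the H3K4me3 peak was 2194, 2289 and 2048 bp wide in H3K4me3 replicates 1 to 3, and at Fndc3a it was 377, 476 and 434 bp wide, beside 475 bp for the merged H3K4me1 region itself.

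The other 6 of the 10 best supported regions lay near Jak2, Stim2, Sgk3, Trit1, Osbpl8 and Bhlha9. Jak2 encodes the kinase that signals for cytokine receptors, and Stim2 a calcium sensor of the endoplasmic reticulum. The Jak2 region lay in an intron 17.7 kb downstream of the TSS with H3K4me1 fold enrichments of 7.72, 8.25 and 8.77. The Stim2 region, also intronic, had 7.72, 7.32 and 11.7. Of the 10, 8 lay in an intron of the nearest gene and 2 were intergenic.

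For regions near genes with a known part in GC B cells, the windows of 4 members follow. They are those near Ets1, Blnk, Slamf7 and Cxcr4, each the best supported member of its gene list, and they show what such a region looks like near a transcription factor, a B cell receptor adaptor, a surface receptor and a chemokine receptor.
Ets1, chr9:33483579-33483878: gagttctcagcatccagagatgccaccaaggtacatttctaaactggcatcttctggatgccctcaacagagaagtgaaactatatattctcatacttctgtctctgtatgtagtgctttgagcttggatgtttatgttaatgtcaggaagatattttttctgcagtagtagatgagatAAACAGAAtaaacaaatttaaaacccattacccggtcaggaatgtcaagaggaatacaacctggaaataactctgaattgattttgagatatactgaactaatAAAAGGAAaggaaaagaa
Blnk, chr19:40981569-40981868: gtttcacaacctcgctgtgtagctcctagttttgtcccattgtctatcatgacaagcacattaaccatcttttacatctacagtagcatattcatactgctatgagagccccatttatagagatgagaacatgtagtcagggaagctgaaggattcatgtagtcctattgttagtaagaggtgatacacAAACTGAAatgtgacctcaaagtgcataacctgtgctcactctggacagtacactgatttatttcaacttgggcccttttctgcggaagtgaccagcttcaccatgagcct
Slamf7, chr1:171658233-171658532: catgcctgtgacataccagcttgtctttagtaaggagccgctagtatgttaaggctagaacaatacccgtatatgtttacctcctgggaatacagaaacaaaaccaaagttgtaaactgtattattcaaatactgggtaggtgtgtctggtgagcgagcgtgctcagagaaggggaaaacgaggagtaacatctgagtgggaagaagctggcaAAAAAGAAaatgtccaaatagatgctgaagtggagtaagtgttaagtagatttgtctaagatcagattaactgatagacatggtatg
Cxcr4, chr1:128548832-128549131: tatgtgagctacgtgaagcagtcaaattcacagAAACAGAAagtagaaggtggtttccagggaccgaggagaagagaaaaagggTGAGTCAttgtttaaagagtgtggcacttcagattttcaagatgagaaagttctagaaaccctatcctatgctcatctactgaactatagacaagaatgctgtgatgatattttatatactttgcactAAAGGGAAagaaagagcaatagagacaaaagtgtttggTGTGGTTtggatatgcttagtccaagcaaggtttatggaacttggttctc
Every one of the 4 held the IRF core, and the Cxcr4 window also held AP-1 (TGANTCA) and RUNX (TGTGGTT). The windows near Ets1 and Cxcr4 held 2 IRF core matches each.

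The Cxcr4 region was intergenic, 43.1 kb downstream of the TSS of this dark zone homing receptor. It had 15, 9 and 8 H3K4me1 fragments at its summit and fold enrichments of 11.2, 7.50 and 6.15 in H3K4me1 replicates 1 to 3, while its H3K4me3 peak was 2212, 2441 and 2294 bp wide with fold enrichments of 8.94, 6.27 and 7.68. Cxcr4 was the nearest gene of 2 more isolated regions, at 5098 bp and at 175.012 kb from its TSS. The Blnk region lay in an intron of Blnk, the adaptor that couples the B cell receptor to phospholipase C, 11.9 kb downstream of the TSS. Its H3K4me1 summit held 10, 8 and 8 fragments, under an H3K4me3 peak of 7475, 6888 and 5610 bp. The Slamf7 region was 5.17 kb upstream of the TSS and held 9, 16 and 9 fragments. The Ets1 region lay 787.148 kb from the Ets1 TSS, inside the noncoding gene Gm47777, and held 11, 9 and 8 fragments. The nearest TSS is a matter of distance alone, as this last case shows, and no contact with a promoter was measured.

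Most isolated distal regions, like H3K4me1 regions as a whole, were modest in H3K4me1. The height of a summit, in fragments, was solved from the fold enrichment and p-value of its peak. It had a median of 7 in each of the 3 libraries, with quartiles of 6 and 9, 5 and 8, and 6 and 8 in replicates 1, 2 and 3. A summit of 10 or more fragments was seen at 19.97% of the isolated regions with a peak in replicate 1, at 9.91% in replicate 2 and at 12.01% in replicate 3. Over all H3K4me1 regions of 2 or more libraries these shares were 18.2%, 10.5% and 11.1%, and the median height was also 7 in each library. The median H3K4me1 fold enrichment was 5.61, 5.25 and 5.47, beside 5.61, 5.49 and 5.28 at clustered regions, so the order of the 2 classes was not the same in every library. The median H3K4me1 peak was 344, 307.5 and 286.5 bp wide.

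**Figure D1:**
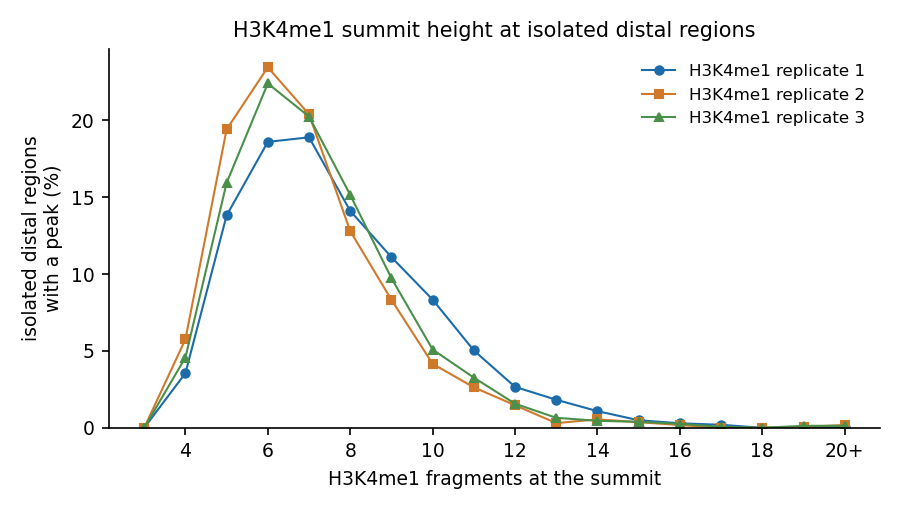
Share of isolated distal regions with a peak (y axis, percent) by the number of H3K4me1 fragments at the summit (x axis; the last point, 20+, pools 20 and more), one line per H3K4me1 library. The 3 lines peak at 6 or 7 fragments and few regions exceed 12; replicate 1 holds the larger share above 10.

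Detection in single libraries was uneven. An H3K4me1 peak was present at 2028 (86.9%), 1634 (70.01%) and 1532 (65.6%) of the 2334 regions in replicates 1, 2 and 3, which had 24136, 13923 and 11922 peaks in all. All 3 libraries held 526 regions (22.5%, 95% Wilson interval 20.9 to 24.3), beside 21.9% of all H3K4me1 regions of 2 or more libraries, so isolated regions were near the background. Replicates 1 and 2 alone held 802, replicates 1 and 3 alone held 700, and replicates 2 and 3 alone held 306. The lowest summits at members held 4 fragments, so a missing peak means that none was called at this depth. Intervals cover counting error only.

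The 2 tallest summits, singled out after their values were seen, were not the best enriched. The region at chr4:3089765-3090117, nearest to the vomeronasal receptor gene Vmn1r2, held 70 and 95 fragments in replicates 2 and 3 with fold enrichments of only 1.99 and 1.73. A region in an intron of Sfi1 held 49, 42 and 32 fragments with fold enrichments of 2.73, 2.92 and 2.29. Both thus stood on a high local background in the peak caller's own terms, and no filter on artefact-prone sequence was applied here.

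The H3K4me3 regions under the members were wider than the H3K4me1 regions, as the lists themselves are. Over all peaks the median width was 821 to 857 bp in the broad H3K4me3 lists and 253 to 270 bp in the narrow H3K4me1 lists, so mark and calling layout cannot be told apart here. No 2 members shared an H3K4me3 region, although 55 of these regions also held an H3K4me1 region of 2 or more libraries that is no member. H3K4me1 regions of 1 library were not counted here. The H3K4me3 regions had a merged median width of 1932 bp (quartiles 1232.5 and 3093), whereas the merged H3K4me1 regions had a median of 467.5 bp. Of the isolated regions, 1936 (82.9%) lay wholly inside the H3K4me3 region. The overlap with H3K4me3 is part of the rule, and 93.1% of all 5788 distal H3K4me1 regions had it. An H3K4me3 peak was called in 3 of 3 libraries at 2036 (87.2%) of the isolated regions, beside 89.4% of clustered regions within H3K4me3. The share was 85.1% over all H3K4me1 regions, which include regions outside H3K4me3 that the rule kept from the members.

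Next, the H3K4me3 peaks over isolated and clustered regions were compared, to see whether an isolated region sits in a smaller H3K4me3 domain. Over isolated regions the median width of the H3K4me3 peak was 1562, 1320 and 1323 bp in H3K4me3 replicates 1, 2 and 3. Over clustered regions it was 3037, 2420.5 and 2364 bp, so all 3 values lay above those of isolated regions. The log2 ratio of isolated to clustered was -0.89 ± 0.06 (SD, n = 3 libraries), a ratio of 0.539, in the same direction in 3 of 3 libraries. The two-sided exact sign-flip permutation test gave p = 0.25, the smallest p that 3 libraries allow, so no contrast of this kind can pass 0.05. Part of the width contrast is fixed by the rule, since a wide H3K4me3 region that holds several H3K4me1 regions makes them neighbours of each other. When only the 1265 clustered regions alone in their H3K4me3 region were used, the median widths were 1797, 1441.5 and 1429 bp. The log2 ratio was then -0.15 ± 0.05 (SD, n = 3 libraries; exact sign-flip p = 0.25), with isolated regions still narrower in 3 of 3 libraries.

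The fold enrichment of H3K4me3 differed little between the classes. It was 5.46, 5.27 and 5.11 at isolated regions and 5.80, 5.54 and 5.37 at clustered ones, a log2 ratio of -0.08 ± 0.01 (SD, n = 3 libraries; exact sign-flip p = 0.25). Against clustered regions alone in their H3K4me3 region the ratio was 0.01 ± 0.01 on the log2 scale (n = 3 libraries; exact sign-flip p = 0.50), with the sign differing between libraries.

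The isolated regions were also set beside 14344 distal H3K4me3 regions that overlapped no H3K4me1 region of 2 or more libraries. H3K4me1 peaks of 1 library were not counted, so this class, called without H3K4me1 here and below, can hold them. There the median H3K4me3 peak was 899, 783 and 780 bp wide, below the isolated regions in every library. The log2 ratio was 0.77 ± 0.02 (SD, n = 3 libraries, exact sign-flip p = 0.25), or 1.71 times wider at the isolated regions. Fold enrichment was 4.41, 4.37 and 4.20 without H3K4me1, and the isolated regions were higher by 0.29 ± 0.02 on the log2 scale (SD, n = 3 libraries; exact sign-flip p = 0.25), in 3 of 3 libraries. A wider H3K4me3 region covers more sequence in which an H3K4me1 peak can be called, and its part in this contrast was not tested. The difference in fold enrichment was 0.049 on the log2 scale at a −log10 q-value of at least 5 and turned to -0.0087 when only the 10000 best peaks per library were kept. The log2 ratio of widths was 0.42 with those best peaks, and 0.28 when distal H3K4me1 regions of 1 library counted as neighbours. At the other end, the 2642 promoter-proximal H3K4me1 regions had H3K4me3 peaks of 2801, 2403 and 2424 bp with fold enrichments of 7.01, 6.41 and 6.26. Isolated regions were lower than these in fold enrichment by a log2 ratio of -0.31 ± 0.04 (SD, n = 3 libraries; exact sign-flip p = 0.25).

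**Figure D2:**
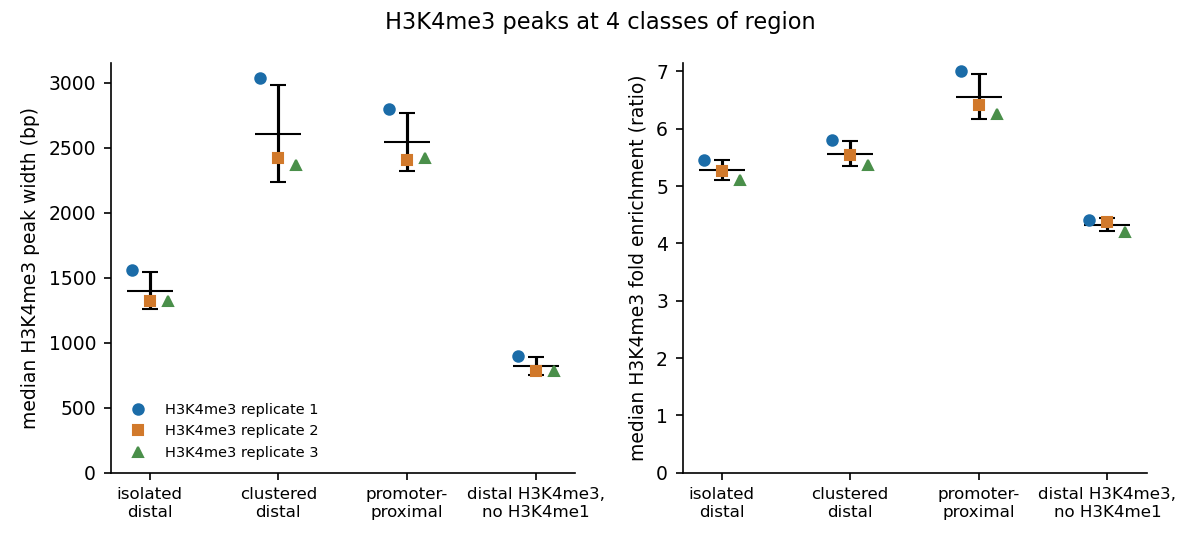
Median width in bp (left) and median fold enrichment as a ratio (right) of the H3K4me3 peaks over 4 classes of region, one symbol per H3K4me3 library, with the mean as a horizontal line and the SD over 3 libraries as bars. Isolated distal regions lie between distal H3K4me3 without H3K4me1 and the clustered and promoter-proximal regions on both axes.

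The place of the H3K4me1 summit inside the H3K4me3 region was not used to choose the members. In replicates 1, 2 and 3 the median summit lay 40.9%, 40.98% and 40.8% of the way from the centre of the H3K4me3 region to its edge. At promoter-proximal regions whose H3K4me3 region covered a TSS the figures were 49.1%, 48.6% and 48.9%, further out in every library. The difference was -8.00 ± 0.32 percentage points (SD, n = 3 libraries; exact sign-flip p = 0.25), larger than the spread between libraries. Clustered regions lay between, at 43.2%, 43.8% and 43.1%. Of the summits at isolated regions, 60.3%, 61.6% and 59.4% fell in the middle 50% of the width of the H3K4me3 region, beside 50.7%, 51.5% and 51.5% at those promoters. Summits spread evenly over the width would give 50% on either measure. In bp the order was reversed. The median summit lay 543, 560.5 and 552 bp from the nearer edge at isolated regions, beside 898, 908 and 915 bp at those promoters. The H3K4me3 regions of isolated members are narrower than those at promoters, and the part of width in this difference was not tested.

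**Figure D3:**
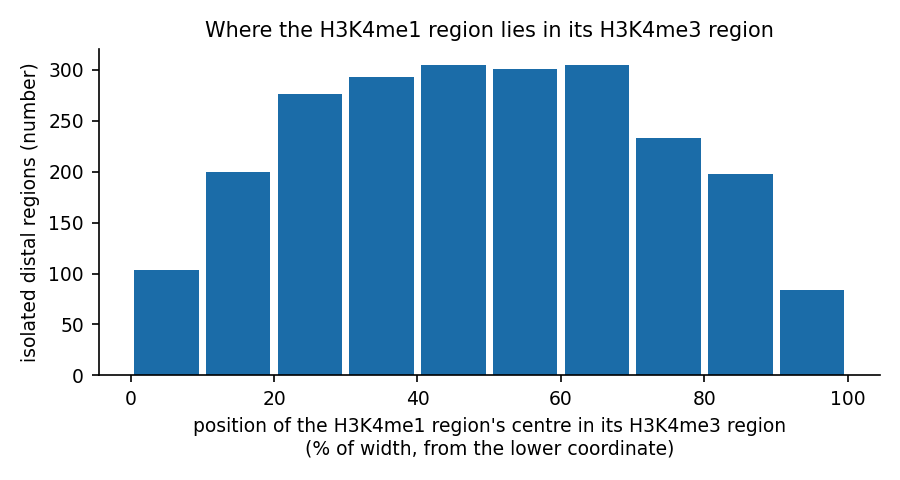
Number of isolated distal regions (y axis) by the position of their centre within the merged H3K4me3 region, in 10 bins of its width from the lower coordinate (x axis, percent). The 5 bins from 20% to 70% hold 276 to 305 regions each, and the outermost bins hold 103 and 84; the regions whose centre lies outside the H3K4me3 region are not drawn.

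Some H3K4me3 domains over members reached into promoters. Ranked by the median peak width over the 3 H3K4me3 libraries, the 5 members with the widest H3K4me3 lay near Pax5, Mob3a, Laptm5, Gm43552 and Irf8, and in all 5 the merged H3K4me3 region reached a TSS. Ranked by merged width the order differs, with 20761 bp as the highest value. At Pax5, the factor that maintains B cell identity, the H3K4me1 region was 5.10 kb downstream of the TSS, in an intron, under an H3K4me3 peak of 12468, 17956 and 14894 bp. At Irf8, a factor of GC B cells and myeloid cells, the peak was 14306, 5464 and 13000 bp, so replicate 2 was far below the others. At Laptm5, which encodes a lysosomal protein that lowers B cell receptor levels, it was 13256, 17494 and 4092 bp. Such cases were few: the H3K4me3 region covered a TSS at 45 members and came within 5 kb of one at 144 (6.17%). The other 2190 were distal by both marks.

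Isolated regions were scattered over the genome and mostly lay within genes. Introns of protein-coding genes held 1314 (56.3%) of their centres and exons 74 (3.17%), a gene body share of 59.5% (95% Wilson interval 57.5 to 61.4). Noncoding genes alone held 173 (7.41%), and 773 (33.1%) were intergenic. The gene body share was 67.6% at clustered regions (66.0 to 69.3) and 50.9% at distal H3K4me3 regions without H3K4me1 (50.1 to 51.7); these intervals cover counting error and do not compare the classes. The distance to the nearest protein-coding TSS had a median of 23.5 kb (quartiles 10.8 and 55.2) and was 27.0 kb at clustered regions. In 520 members (22.3%) it was 10 kb or less, and in 273 (11.7%) it was over 100 kb. Of all members, 1441 (61.7%) lay downstream of that TSS and 1123 (48.1%) inside its gene. The name distal rests on protein-coding genes: 378 members (16.2%) lay within 5 kb of the TSS of a noncoding gene.

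The name isolated also has limits in these files. The next distal region was a median of 57.0 kb away (quartiles 26.6 and 163), and in 1276 members (54.7%) it was over 50 kb away. Of all distal regions, 44.5% were isolated by the rule. When peaks seen in 1 library are counted as neighbours too, 1806 members (77.4%) had another H3K4me1 region within 12.5 kb, and 528 (22.6%) had none. A promoter-proximal region of 2 or more libraries lay within that distance of 241 members (10.3%).

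At the 5 kb limit, the members near Umad1 and Sbf1 were 5010 and 5012 bp from a TSS, and regions near Bcl9l and 1110059E24Rik at 4996 and 4994 bp were left out. At the isolation limit, a pair of members upstream of Mef2a lay 12.503 kb apart, while the regions near Hira and Epc1 had a neighbour at 12.473 and 12.396 kb and were left out. The Sbf1 region had H3K4me1 fold enrichments of 7.72, 5.998 and 6.58 in 3 of 3 libraries. The Hira region had 4.21 and 5.12 in the 2 libraries that held it.

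By chromosome, members ranged from 6.88 to 13.3 per 10 Mb on the autosomes, with the top value on chromosome 19. The X chromosome had 17 members, 0.994 per 10 Mb, and the Y chromosome none. H3K4me1 regions of all classes were sparse there too, with 30 of 8430 on the X. One of the 17 lay in an intron of Kdm6a, the X-linked H3K27 demethylase, with fold enrichments of 6.32 and 8.77 in replicates 1 and 3.

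The nearest TSS belonged to 1851 different protein-coding genes, 8.47% of 21864. Clustered regions, though more numerous, were nearest to 971 genes. By the rule each of them has a neighbour within 12.5 kb, which can share its nearest TSS, so fewer genes per region follow in part from the definition. The 392 genes near both classes were 21.2% of the genes near isolated regions and 40.4% of those near clustered regions. Most genes had 1 isolated region (1507 genes), and 98 had 3 or more. Lmo4, which encodes a LIM-only cofactor, and Tbc1d1, a regulator of vesicle traffic, had 6 each and no clustered region. Bach2, Ebf1, Foxp1 and Tox, which encode transcription factors of B and T cells, had 5 isolated regions each beside 10, 8, 11 and 4 clustered ones. Zfp36l1, the gene of an mRNA decay factor, had 5 of each. In all, 10 genes had 5 isolated regions, and the rest of them were Elmo1, Nfe2l3, Rere, Tgfbr2 and Tomm20. Long intervals between genes take up more regions, and the part of gene spacing in these counts was not tested.

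Promoters of the nearest genes often carried H3K4me3, which the rule did not use. An H3K4me3 peak covered a TSS of 70.9%, 62.0% and 66.0% of the 1851 genes in replicates 1 to 3, beside 45.0%, 40.4% and 42.3% of the other protein-coding genes. The difference was 23.7 ± 2.17 percentage points (SD, n = 3 libraries; exact sign-flip p = 0.25), higher in 3 of 3 libraries. It was 23.1 ± 2.32 points without the members whose H3K4me3 region came within 5 kb of a TSS. Over 2 or more libraries the shares were 66.3% of the nearest genes and 44.8% of all genes. H3K4me1 within 5 kb of a TSS was called at 54.1%, 36.7% and 36.9% of the nearest genes and at 24.1%, 15.0% and 13.6% of the others. The other 623 of the nearest genes had no H3K4me3 over a TSS in 2 or more libraries.

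Lists of genes with roles in the GC were then read against the 8.47% of all protein-coding genes that were nearest to a member. The lists were chosen with earlier results of these data known, so their shares are description and were not tested. Of 35 B cell transcription factors, 21 were nearest to an isolated region, with 54 regions among them. Clustered regions were nearest to 23 of the 35, beside 4.44% of all genes near a clustered region, so both classes exceeded their background. Neither background was matched for H3K4me3 at promoters. H3K4me3 covered a TSS in 2 or more libraries at 29 of these 35 genes, beside 44.8% of all genes. Of the lists below, B cell receptor signalling had 24 of 26, T cell help 28 of 30 and migration 25 of 25. Chromatin regulators had 15 of 25, repair and cell cycle genes 18 of 20 and T cell genes 4 of 18. The part of promoter H3K4me3 in the list shares was not tested. The 21 factors near an isolated region included Bcl6, the repressor that directs the GC program, Pax5, Ebf1, Irf8, Irf4, Mef2c, Bach2, Foxo1, Foxp1, Pou2f2, Runx1, Runx3, Batf, Rel and Myc. The best supported region near Myc was intergenic, 469.597 kb downstream of the TSS, with H3K4me1 fold enrichments of 6.32, 5.25 and 6.58. That near Irf4, the factor of late GC and plasma cells, lay 85.2 kb downstream in an intron of the neighbouring gene Exoc2. Its values were 4.91, 8.24 and 5.12, and its window held the octamer (ATGCAAAT), the site of POU factors.

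Of 26 genes of B cell receptor signalling, 12 were nearest to an isolated region and 13 to a clustered one. The 12 included Cd79a, Syk, Lyn, Blnk, Plcg2, Prkcb, Malt1 and Fcgr2b. Syk, the kinase next to the receptor, had 1 region 17.4 kb upstream and 1 in an intron 5.88 kb downstream of its TSS. The intronic one lay in an H3K4me3 region of 13564 bp that reached the TSS, and its H3K4me1 fold enrichments were 6.32, 6.75 and 4.39. The region 15.8 kb upstream of Fcgr2b, the inhibitory Fc receptor, had 4.91, 4.50 and 4.36 and a PU.1 motif in its window.

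T cell help and antigen presentation gave 12 of 30 genes, among them Cd40, Cd83, Icosl, Il21r, Cd274, Slamf6, Cd74, Fas and Socs3. Icosl encodes the ligand of ICOS, through which GC B cells hold on to helper T cells, and its region lay 18.1 kb downstream of the TSS. It was held by 2 libraries, with fold enrichments of 6.32 and 5.25 in replicates 1 and 2. The H2-Oa region, near a gene that restrains peptide loading onto class II molecules, had 8.42 and 8.04 in replicates 1 and 3. Migration and adhesion gave 11 of 25, among them Cxcr4, Cxcr5, Ccr7, S1pr1, Gna13 and Cd44. The Cd44 region, in an intron of this adhesion receptor gene, had 4.81, 5.90 and 6.84. Chromatin regulators also gave 11 of 25, among them Ep300, Ezh2, Kdm6a, Hdac9, Arid1b and Chd7. Mutation, repair and cell cycle genes gave 4 of 20 (Ccnd2, Cdk6, Cdkn1a and Rb1) and plasma cell genes 2 of 10 (Jchain and Ell2). Clustered regions were nearest to 11 of the 30 T cell help genes, 10 of the 25 migration genes and 9 of the 25 chromatin genes. They were nearest to 2 of the 20 repair and cell cycle genes and 3 of the 10 plasma cell genes, beside 4.44% of all genes. Nearness to genes of these lists was thus not particular to isolated regions.

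**Figure D4:**
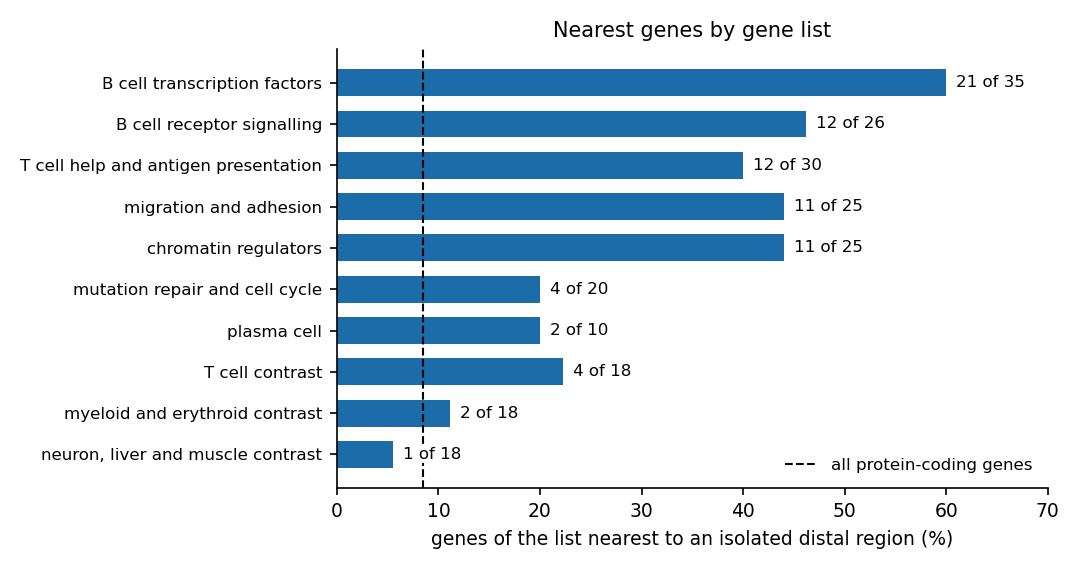
Share of the genes of each of 10 lists that were the nearest protein-coding gene of an isolated distal region (x axis, percent), with counts beside the bars. The dashed line is the 8.47% of all protein-coding genes. The first 5 lists lie at 40% or more, and the list of neuron, liver and muscle genes lies below the line. The lists were chosen with earlier results of these data known.

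Lists of other cell types were not empty. T cell genes gave 4 of 18 (22.2%), above the repair and plasma cell lists at 20% each. They included Cd28, Ctla4 and Il2ra. Myeloid and erythroid genes gave 2 of 18 (Itgam and Adgre1), and genes of neurons, liver and muscle 1 of 18. The last, Apoa1, was named only for its distance: both of its regions lay in introns of the kinase gene Sik3. The Il2ra region, in an intron of the interleukin 2 receptor alpha chain gene, had H3K4me1 fold enrichments of 9.82, 6.75 and 6.58. The Itgam region, 13.6 kb upstream, had 11.2 and 8.31 in replicates 1 and 3. As to the identity of the cells, H3K4me3 lay within 5 kb of a TSS in 3 of 3 libraries at 10 of 10 GC B cell markers and at 4 of 4 plasma cell markers. It did so at 1 of 6 T cell markers (Cd3d), with Cd3e, Cd4 and Cd8a at 0 of 3 libraries, at 1 of 4 myeloid markers (Itgam; Lyz2 at 0 of 3) and at 2 of 4 erythroid markers (among them Klf1; Gata1 and Alas2 at 0 of 3). These marker counts stand without the matching share over all protein-coding genes, so they cannot be read against a background. Whether other cells in the sort contributed to the Itgam or T cell gene regions was not tested.

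In base composition the isolated regions were close to other H3K4me1 regions and below promoters. The central 300 bp had a median GC content of 45.7%, beside 45.3% at clustered regions and 54.3% at promoter-proximal H3K4me3 regions. The median ratio of observed to expected CpG was 0.213, beside 0.195 and 0.538. No CpG at all was found in 166 windows (7.11%), beside 6.87% of all H3K4me1 regions and 8.02% of clustered ones. Repeats, as masked in the RefSeq genome, covered over 50% of the window at 158 members (6.77%), beside 6.29% of all and 7.17% of clustered regions.

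Of the motifs found in over 5% of windows, PU.1 (GAGGAAGT) and RUNX exceeded their share in all H3K4me1 regions by the largest factor. PU.1 letters were in 170 windows (7.28%), beside 5.59% of all H3K4me1 regions, 5.14% of clustered ones and 2.78% of promoter-proximal H3K4me3 regions. The share was 8.71% (21 of 241) at isolated regions outside H3K4me3, above that of the members. RUNX letters were in 259 (11.1%), beside 9.28% of all and 8.61% of clustered regions. The E2A E-box (CAGCTG) was in 17.0% beside 15.4%, the octamer in 4.46% beside 3.95%, the EBF1 core (CCCNNGGG) in 7.16% beside 6.54%, and the IRF core in 36.7% beside 34.7%. AP-1 at 9.51% beside 9.40%, NF-kB (GGGANTTCC) at 1.16% beside 1.20% and the MEF2 core at 7.84% beside 7.63% were near their background. The CRE (TGACGTCA) and the promoter type ETS site (CCGGAAGT) were rare, at 0.386% beside 0.249% and 0.686% beside 0.498%. The EBF1 core was most frequent at promoter-proximal H3K4me3 regions, 15.7%, which are richer in GC. All were searched on both strands; the PU.1 and ETS letters share the run GGAAGT, and the others do not contain each other. None of the 11 was found in 728 windows (31.2%), and 972 held exactly 1. A match is a run of letters, not a bound site, and these shares were not tested.

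**Figure D5:**
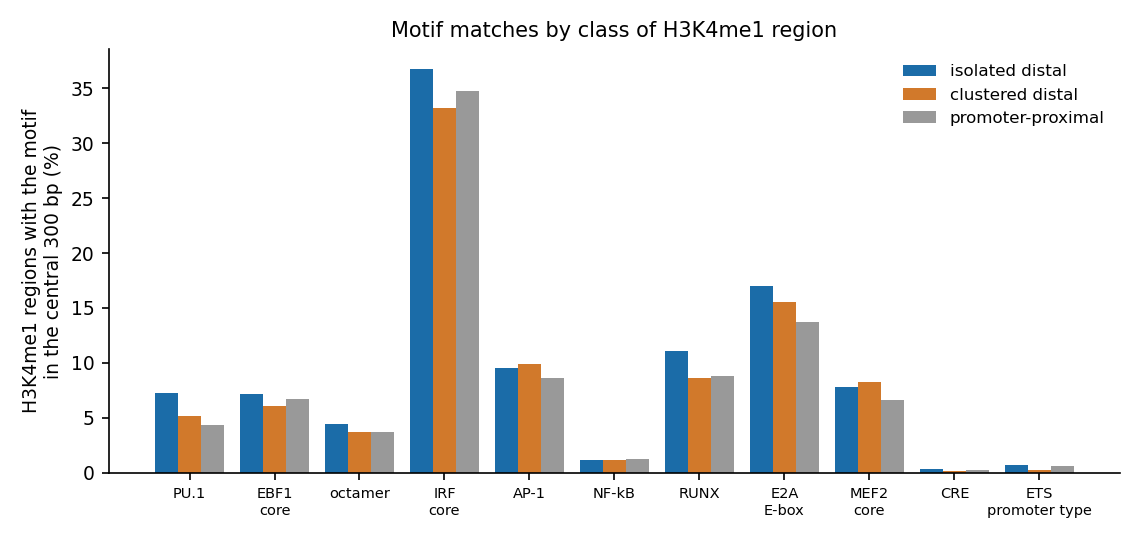
Share of H3K4me1 regions whose central 300 bp hold each of 11 motifs on either strand (y axis, percent), for isolated distal, clustered distal and promoter-proximal regions. The PU.1 bar is 7.28% for isolated and 5.14% for clustered regions, and the RUNX bar 11.1% and 8.61%.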

How the data were processed

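The deposited peak lists of 6 libraries, 3 per mark, were used, called by the authors in each library separately. H3K4me1 lists have the narrow and H3K4me3 lists the broad layout of MACS2. The submitters' processing notes name mm10, BWA, Picard, HOMER and Genrich, without saying which step used which; the caller's settings and control are not given in the sources used here. The deposited fold enrichment is a linear ratio of pileup to local background with a constant added to each, the relation that gave whole summit heights. The deposited −log10 p-value and −log10 q-value belong to the same comparison. In broad lists these are averages over a peak. The lowest −log10 q-value was 1.31 to 1.32 for H3K4me1 and 1.02 to 1.14 for H3K4me3. Libraries had 11922 to 24136 H3K4me1 peaks and 41936 to 46707 H3K4me3 peaks. Total reads were not used here, so depth is known only through summit heights.

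Coordinates were read as GRCm38, since 0 peaks lay past a chromosome end of GRCm38.p6. TSSs were the 41421 distinct positions of protein-coding transcripts in GENCODE M21 basic. Peaks sharing at least 1 bp were merged per mark, and distances were taken from the nearer edge of a region. Members were named by the nearest protein-coding TSS. In each library the widest peak of a mark over a region gave its width and fold enrichment. The summit height of a region was the tallest among its H3K4me1 peaks, so height and fold enrichment can come from different peaks. Summit heights were solved from fold enrichment and −log10 p-value with a tolerance of 0.0005, which gave whole fragments for 99.99% to 100% of H3K4me1 peaks. Broad peaks are averages and gave no heights.

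Contrasts of region classes were log2 ratios of medians, or differences, within a library, tested by an exact two-sided sign-flip permutation test over 3 libraries, whose smallest p is 0.25. No adjustment over the contrasts was printed, since none can pass 0.05. Shares have 95% Wilson intervals. Regions are not replicates, and no test was run over them. Named regions were the 10 with the highest fold enrichment in their lowest library among those in 3 of 3 libraries, up to 4 per gene list, the 5 with the widest H3K4me3 peak, and the 2 on each side of either distance limit. A few genes of these lists are not reported by name here. The members and lists were chosen with earlier results of these data known. The scripts (Python 3.11.15, numpy 2.4.6, scipy 1.17.1, pysam 0.24.0) were tested on simulated data. Alternatives covered the q-value, merging, the number of libraries, distances, neighbours, the TSS set, the overlap and leaving out each library.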

Additional observations from a re-analysis of the deposited data

How the results depend on the processing

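Of 166 recomputed values, 141 were unchanged by the criterion for their kind, 21 moved and 4 changed sign; for the contrasts that criterion is the sign alone, since no p can pass 0.05, and causes were not tested beyond what each setting removes. The number of isolated regions, 2334, was 505 at a −log10 q-value of at least 5, 657 with the 10000 best peaks per library, 958 with 3 of 3 libraries required and 693 when distal regions of 1 library counted as neighbours. It ranged from 1296 to 2219 when 1 library was left out, with the low value without H3K4me1 replicate 1, the library with most peaks. The share held by 3 of 3 libraries was 13.5%, 28.0% and 30.5% at the stricter q-value, with the best peaks and with peaks within 1 kb merged.

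The width contrasts kept their sign under every setting run but not their size: to clustered regions the log2 ratio ranged from -1.12 to -0.15, and to H3K4me3 without H3K4me1 from 0.28 to 0.98. The log2 ratio of H3K4me3 fold enrichment to clustered regions, -0.08, turned to 0.010 at the stricter q-value, 0.024 with the best peaks and 0.011 against clustered regions alone in their H3K4me3 region. That to distal H3K4me3 without H3K4me1 was 0.049 at the stricter q-value and turned to -0.0087 with the best peaks. The gene body share was 63.2% at the stricter q-value, 62.4% with 3 of 3 libraries, 61.6% with TSSs of all genes and 58.5% to 62.0% when 1 library was left out. The median TSS distance was 26.1 kb with 3 of 3 libraries, 20.1 kb and 31.0 kb with TSS limits of 2.5 and 10 kb, 25.9 kb and 21.6 kb with isolation distances of 5 and 25 kb, 27.4 kb with proximal neighbours counted and 21.4 kb with neighbours of 1 library counted. It was 26.0 kb without members whose H3K4me3 region came within 5 kb of a TSS, and 23.0 to 25.3 kb when 1 library was left out.

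The settings on touching peaks, on clustered regions alone in their H3K4me3 region, on H3K4me3 near a TSS and on repeats were chosen after seeing the data. No paired analysis was possible because the shared replicate numbers join libraries of different marks, and no result tests one mark against the other; contrasts of region classes were taken within each library. With summits of a median of 7 fragments, H3K4me1 calls limit which regions enter at all.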
